A study of Sus scrofa with 6 samples.

Results

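Glycolysis splits glucose into pyruvate in the cytosol through a fixed chain of enzymes, and it yields ATP and NADH on the way. Mammalian oocytes are known for low glycolysis of their own: they draw on pyruvate and lactate made by the surrounding cumulus cells, which take up and break down glucose more readily. Glucose 6-phosphate, the substrate of the first enzyme described here, also feeds the pentose phosphate pathway, a source of NADPH.

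The mRNAs of 10 glycolytic enzymes, GPI, PFKL, PFKM, PFKP, ALDOA, TPI1, GAPDH, PGK1, ENO1 and PKM, were followed in single pig oocytes. These genes were chosen by name, and 9 of the 10 were found among the 19300 genes listed in the oocytes' files. ALDOA had no matching gene ID and was not analysed here. Of the 9, 8 averaged at least 1 FPKM (read fragments corrected for gene length and library depth) over the 6 oocytes and were compared between classes. ENO1 fell below that level and is given by its values.

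The study set 3 brilliant cresyl blue (BCB)-positive against 3 BCB-negative oocytes of Sus scrofa at the germinal vesicle stage, with no maturation culture. BCB-positive oocytes keep the blue dye and are generally taken as fully grown; BCB-negative oocytes turn it colourless and are generally taken as still growing. All came from antral follicles, were freed of their cumulus cells and zonae pellucidae, and were lysed and sequenced as 1 oocyte per library. No animal or culture is named for any oocyte, so each class stands as 1 sample of 3 cells, and differences are described without a test.

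Estimated counts summed to between 7122749 and 9238987 per oocyte. BCB-positive oocyte 3 stood apart: its mean correlation with the other oocytes across compared genes was 0.874, against 0.905 to 0.915 for the rest. Of 10 oocyte markers, 8 were at 5 FPKM or more in every oocyte, led by the zona proteins ZP3 and ZP4. NOBOX, a transcription factor of the oocyte, stayed under 1 FPKM throughout. Of 13 cumulus or granulosa markers, 9 were found, and their summed level was 79.4 to 147 FPKM in BCB-positive and 117 to 143 FPKM in BCB-negative oocytes. Nearly all of that sum was GATA4 and INHBA, and FSHR, FOXL2, HAS2 and LHCGR were not among the matched genes. Without those, the remaining 7 summed to 4.08, 3.23 and 0.76 FPKM in BCB-positive oocytes 1, 2 and 3, and to 1.07, 0.52 and 0.27 FPKM in BCB-negative oocytes 1, 2 and 3. The part of these markers in the differences between classes was not tested. Of the listed markers of theca or stroma, endothelium and blood, 4 of 6, 2 of 4 and 1 of 6 were found. Those found summed to at most 3.33, 3.88 and 0.56 FPKM in any oocyte. DCN and PECAM1 were the highest for theca or stroma and for endothelium, and PTPRC was the only blood marker found. These low sums thus cover only a part of each list.

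The enzymes differed widely in level from each other, and their summed FPKM overlapped between the classes. Their summed level was 219, 197 and 195 FPKM in BCB-positive oocytes 1, 2 and 3, against 265, 245 and 216 FPKM in BCB-negative oocytes 1, 2 and 3. The classes overlapped narrowly, BCB-positive oocyte 1 lying just above BCB-negative oocyte 3. The log2 difference of the sums, BCB-positive minus BCB-negative, was -0.25 with a pooled SD between oocytes of 0.12, and -0.22 without BCB-positive oocyte 3. Scaling decided the overlap: divided by median-of-ratios size factors, the sums were 214, 191 and 172 in BCB-positive and 262, 249.7 and 220.4 in BCB-negative oocytes, which no longer overlapped, with a difference of -0.35. Rescaling each oocyte to the same FPKM total kept the overlap and gave a difference of -0.15. GAPDH carried most of the difference in summed FPKM. With GAPDH left out, the sums averaged 133 ± 4.92 FPKM in BCB-positive and 143 ± 17.3 FPKM in BCB-negative oocytes (SD over 3 oocytes each). The log2 difference was then -0.09. With TPI1 left out as well it was -0.18 (pooled SD 0.13), and the classes still overlapped.

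A gene was called where the lowest of the 3 oocytes in one class exceeded the highest in the other and the means of log2(FPKM + 1) were at least 1.5-fold apart, a scale that understates differences of low genes. By that rule 0 of the 8 compared enzymes were higher in BCB-positive oocytes, where 5.75% of the 11495 compared genes were called. PFKL alone was lower, 1 of 8, where 2.66% of compared genes were called. Ordering without regard to size held for 2 of 8 as lower, PFKL and GPI, against 4.03% of compared genes, and for 0 of 8 as higher, against 7.44%. With 8 genes, 1 or 2 calls are too few to read against those shares. The median difference of the 8 was -0.15, where that of all compared genes was 0.11. The means were lower in BCB-positive oocytes for 4 enzymes and higher for 4, and for 6 of the 8 the SD between oocytes of a class exceeded the size of the difference.

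**Figure D1:**
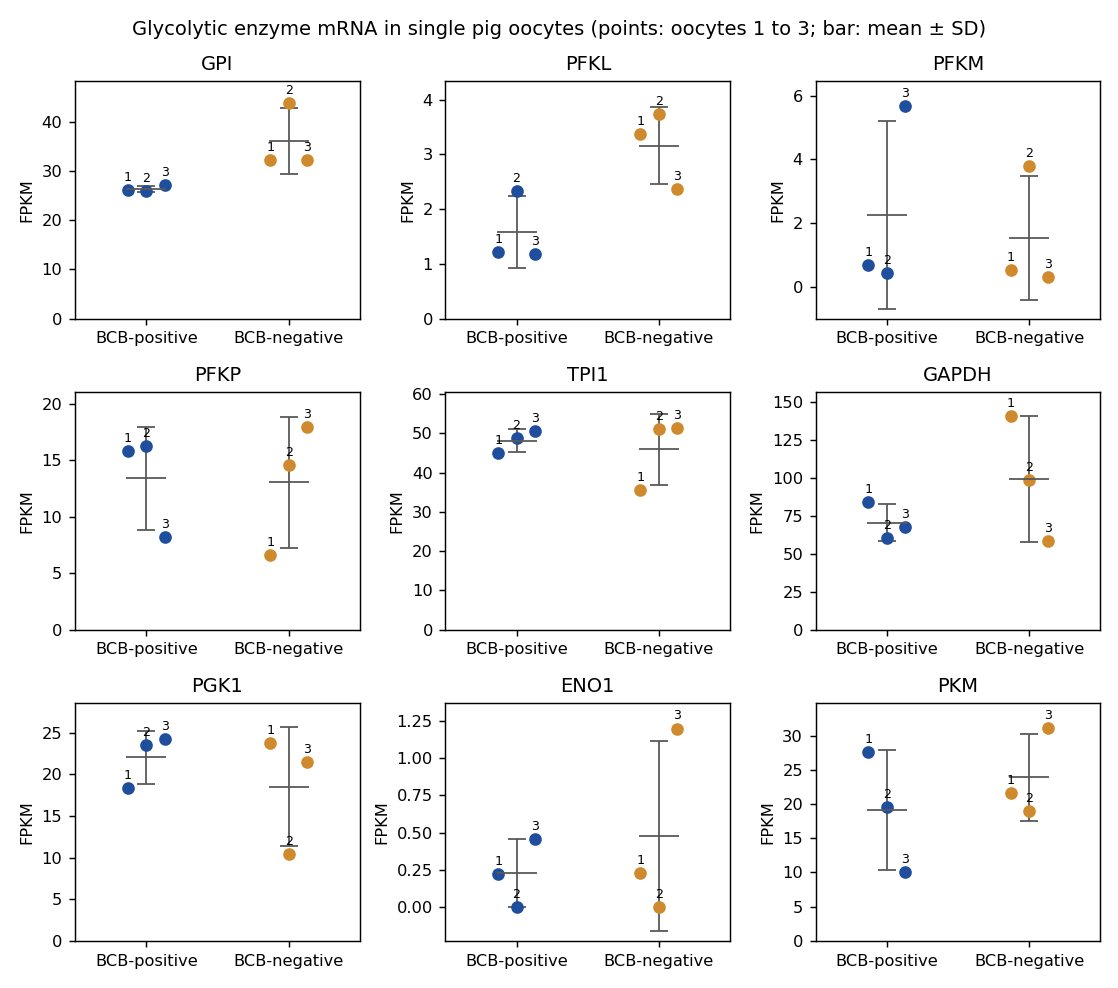
FPKM of each enzyme gene in each oocyte (points, numbered 1 to 3 within a class) with the class mean and SD over 3 oocytes, BCB-positive left and BCB-negative right. GPI and PFKL are the panels in which the classes do not overlap; GAPDH reaches 141 FPKM in BCB-negative oocyte 1 and ENO1 stays at or under 1.20 FPKM.

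GPI, which turns glucose 6-phosphate into fructose 6-phosphate, measured 26.1, 25.95 and 27.1 FPKM in BCB-positive oocytes 1, 2 and 3. It had 32.3, 43.9 and 32.3 FPKM in BCB-negative oocytes 1, 2 and 3. All BCB-positive oocytes thus lay below all BCB-negative ones, and the BCB-positive oocytes lay close to each other. The log2 difference was -0.43 (SD 0.18), short of the 1.5-fold rule, and -0.44 without BCB-positive oocyte 3. It was -0.28 with the highest, BCB-negative oocyte 2, left out. At the closest point of the classes the counting intervals overlapped slightly: BCB-positive oocyte 3 had 482 counts (95% Poisson interval 24.7 to 29.6 FPKM) and BCB-negative oocyte 3 had 441 counts (29.4 to 35.5 FPKM). With FPKM rescaled to a common sum in each oocyte the classes overlapped. Summed over each class, GPI had 1279 counts in BCB-positive oocytes, or 50.6 CPM (scaled to library size; 95% Poisson interval 47.9 to 53.5), and 1553 counts in BCB-negative oocytes, or 69.3 CPM (65.9 to 72.8). Such intervals cover the counting error of reads only, and leave out differences between cells. The protocol names no molecular identifiers, so PCR copies of 1 molecule may be counted more than once and the intervals may be too narrow. GPI was also among the steadier genes: 4.79% of the 2630 compared genes with a mean level within 2-fold of its own had a smaller SD between oocytes.

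Phosphofructokinase makes the committed step of glycolysis, adding a second phosphate to fructose 6-phosphate. Its subunits are made from 3 genes, named for liver (PFKL), muscle (PFKM) and platelet (PFKP), and they assemble into tetramers that may mix subunits. PFKP mRNA was the most abundant of the 3 by FPKM in 6 of 6 oocytes, and PFKL and PFKM were low. By counts, with no length scaling, it led in 5 of 6: in BCB-positive oocyte 3 PFKM held 48.4% of phosphofructokinase counts and PFKP 41.8%. PFKP is active in many tissues and measured 15.9, 16.2 and 8.18 FPKM in BCB-positive oocytes 1, 2 and 3, against 6.63, 14.6 and 18.0 FPKM in BCB-negative oocytes 1, 2 and 3. The classes overlapped fully: BCB-positive oocyte 3 and BCB-negative oocyte 1 were low, and the other 4 lay together. The log2 difference was 0.08 (SD 0.61), 0.38 without BCB-positive oocyte 3, and turned to -0.01 under scaling by median-of-ratios size factors.

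PFKL was the enzyme with the largest difference. It had 1.22, 2.34 and 1.19 FPKM in BCB-positive oocytes 1, 2 and 3, against 3.38, 3.74 and 2.37 FPKM in BCB-negative oocytes 1, 2 and 3. The classes were ordered, but only just, since BCB-positive oocyte 2 and BCB-negative oocyte 3 were nearly level. Those oocytes rested on 52 counts (95% Poisson interval 38.8 to 68.2) and 46 counts (33.7 to 61.4), so their order lay within the counting error. The log2 difference was -0.70 (SD 0.31), and -0.60 without BCB-positive oocyte 3. Summed over each class, PFKL had 108 counts in BCB-positive oocytes, or 4.28 CPM (3.51 to 5.16), and 194 counts in BCB-negative oocytes, or 8.66 CPM (7.48 to 9.96). PFKL stayed called as lower under each alternative scaling, and dropped from the comparison under a minimum of 5 FPKM. It also stayed called with each oocyte left out, but an order that holds in the full set cannot be lost by removing a cell. Only the size part of the rule could fail in those runs. There the log2 difference of PFKL ran from -0.902 to -0.598, the latter just past the 0.585 in size that the rule asks for.

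PFKM varied most between single oocytes among the 8 compared enzymes. It had 0.68, 0.44 and 5.66 FPKM in BCB-positive oocytes 1, 2 and 3, against 0.52, 3.78 and 0.30 FPKM in BCB-negative oocytes 1, 2 and 3. Thus 1 oocyte of each class was several times above its 2 classmates, the highest being 18.9-fold above the lowest. The counts behind these values were 15, 10 and 147 in BCB-positive and 11, 81 and 6 in BCB-negative oocytes. The log2 difference of 0.26 (SD 1.13) turned to -0.44 without BCB-positive oocyte 3, and 89.4% of the 3518 compared genes within 2-fold of its mean level had a smaller SD. PFKM and SENP1 overlap in span in the annotation of Sscrofa11.1, not the build listed by the submitters, and SENP1 averaged 0.718 FPKM. Overlap of their exons was not examined, and whether the counting heeded strand is not given in the sources used here. PFKM had whole estimated counts in 6 of 6 oocytes. Any mixing of reads between the 2 genes was not tested.

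Shares within an oocyte do not depend on how libraries were scaled. PFKP made up 89.3%, 85.4% and 54.4% of phosphofructokinase FPKM in BCB-positive oocytes 1, 2 and 3, against 63.0%, 65.9% and 87.1% in BCB-negative oocytes 1, 2 and 3. Each class thus held oocytes near 90% and oocytes nearer 60%, and the means of 76.4% ± 19.1 in BCB-positive and 72.0% ± 13.1 in BCB-negative oocytes (SD, n = 3 each) differed by 4.38 points, less than either SD. The smaller shares of PFKP had different partners. In BCB-positive oocyte 3 PFKM took 37.7% and PFKL 7.92%, whereas in BCB-negative oocyte 1 PFKL took 32.1% and PFKM 4.94%. PFKL averaged 9.03% ± 2.88 in BCB-positive and 20.2% ± 10.7 in BCB-negative oocytes, and the ranges overlapped, at 12.3% in BCB-positive oocyte 2 and 11.5% in BCB-negative oocyte 3. By summed counts, with no length scaling, PFKL was 12.9% of 836 phosphofructokinase counts in BCB-positive oocytes (95% exact binomial interval 10.7% to 15.4%) and 25% of 776 in BCB-negative oocytes (22% to 28.2%). Those intervals pool the reads of 3 cells and leave out differences between cells. Oocyte by oocyte the count shares overlapped, at 18.4% in BCB-positive oocyte 2 and 17.3% in BCB-negative oocyte 3. BCB-negative oocyte 1 had the largest, 42.4%. The summed level of the 3 genes was 17.8, 19.0 and 15.0 FPKM in BCB-positive and 10.5, 22.1 and 20.6 FPKM in BCB-negative oocytes, a log2 difference of 0.02 (SD 0.41).

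**Figure D2:**
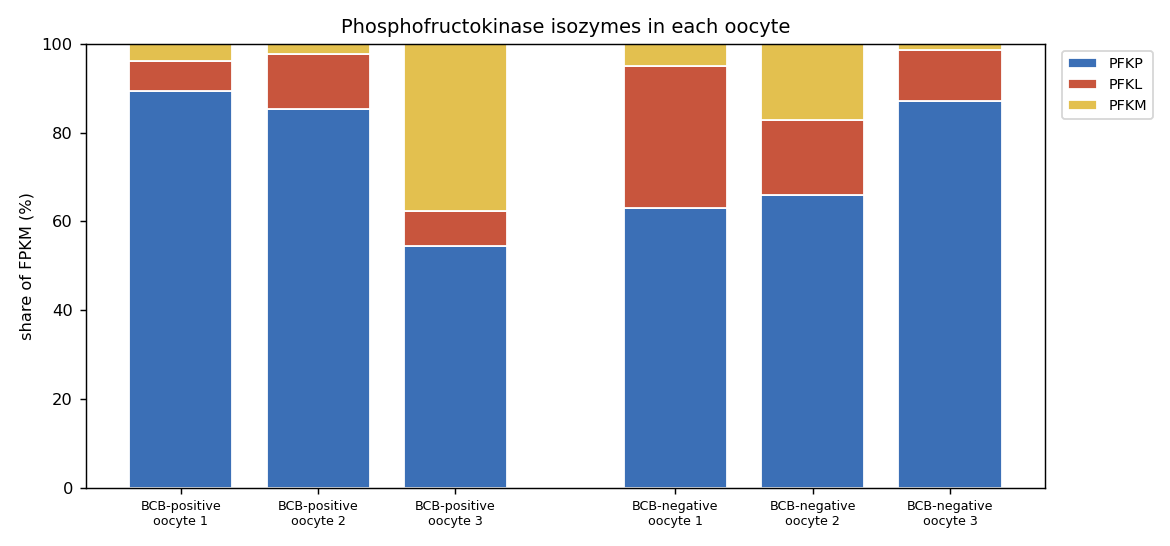
Share of phosphofructokinase FPKM (%, stacked to 100) from PFKP, PFKL and PFKM in each oocyte, BCB-positive left and BCB-negative right. PFKP is the largest share in every oocyte, from 54.4% to 89.3%, and the remainder is mainly PFKM in BCB-positive oocyte 3 and mainly PFKL in BCB-negative oocyte 1.

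Downstream of the aldolase step, TPI1 interconverts the 2 triose phosphates so that both can pass through the rest of the pathway. TPI1 was the steadiest of the 8 compared enzymes in fold terms, with a highest oocyte 1.45-fold above the lowest. It had 45.0, 48.7 and 50.6 FPKM in BCB-positive oocytes 1, 2 and 3, against 35.5, 51.0 and 51.3 FPKM in BCB-negative oocytes 1, 2 and 3. BCB-negative oocyte 1 was the low one, and the rest lay within a few FPKM. TPI1 differed by 0.08 on the log2 scale (SD 0.22), by -0.02 under size factor scaling and by -0.09 without BCB-negative oocyte 1. Of its 2 listed transcripts, the longer one (1741 bases) held 85.7% ± 6.2 of TPI1 FPKM in BCB-positive and 84.8% ± 2.4 in BCB-negative oocytes, so the split was alike in mean and wider between BCB-positive oocytes.

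GAPDH oxidises glyceraldehyde 3-phosphate and makes the NADH of the pathway; it is also widely used to normalise PCR measurements. It was the most abundant of the enzymes in 6 of 6 oocytes. GAPDH measured 84.0, 60.3 and 67.9 FPKM in BCB-positive oocytes 1, 2 and 3, against 141, 98.9 and 58.3 FPKM in BCB-negative oocytes 1, 2 and 3. The BCB-negative oocytes spanned the whole range, holding both the highest and the lowest value, 2.42-fold apart. The log2 difference was -0.41 (SD 0.48), and -0.39 without BCB-positive oocyte 3. It rested on BCB-negative oocyte 1, without which it was -0.12. Without BCB-negative oocyte 3 it was -0.74 and GAPDH met the rule as lower. Its estimated counts were not whole in 4 of 6 oocytes, as occurs when reads are divided with another gene, so its level is uncertain. GAPDH also overlaps IFFO1 in span in the annotation of Sscrofa11.1, and IFFO1 averaged 4.55 FPKM.

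PGK1, which makes the first ATP of the pathway, measured 18.3, 23.5 and 24.3 FPKM in BCB-positive oocytes 1, 2 and 3. It had 23.7, 10.4 and 21.5 FPKM in BCB-negative oocytes 1, 2 and 3. BCB-negative oocyte 2 was low and the other 5 overlapped. The log2 difference of 0.31 (SD 0.46) was -0.04 without that oocyte. Its estimated counts were not whole in 2 of 6 oocytes, so a part of its reads may have been divided with another gene.

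ENO1, the enolase of most tissues, was near the limit of detection. It had 0.22, 0 and 0.46 FPKM in BCB-positive oocytes 1, 2 and 3, against 0.23, 0 and 1.20 FPKM in BCB-negative oocytes 1, 2 and 3. These values rested on 7 counts in all BCB-positive and 12 counts in all BCB-negative oocytes, with 95% Poisson intervals of 2.81 to 14.4 and 6.20 to 21.0 counts. Both classes held an oocyte in which ENO1 was listed at 0, and 3 counts would have been about 0.276 to 0.36 FPKM in the others. A class difference was not detectable at this depth.

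PKM, pyruvate kinase, makes pyruvate and the last ATP of the pathway. It had 27.6, 19.6 and 10.1 FPKM in BCB-positive oocytes 1, 2 and 3, against 21.6, 19.0 and 31.1 FPKM in BCB-negative oocytes 1, 2 and 3. BCB-positive oocyte 3 was the lowest, and the other 5 overlapped. PKM differed by -0.38 on the log2 scale (SD 0.55), and by -0.01 without that oocyte.

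PKM had 7 listed transcripts, the most of any member, and GPI, PGK1, GAPDH, ENO1 and each phosphofructokinase gene had 1. The gene is known to be spliced into forms that differ in regulation, M1 and M2; which listed transcript encodes which form was not determined here. XM_001929069.3 (2477 bases) held 25.7%, 24.9% and 7.15% of PKM FPKM in BCB-positive oocytes 1, 2 and 3, against 44.9%, 41.3% and 24.6% in BCB-negative oocytes 1, 2 and 3. BCB-positive oocytes were lower on average by 17.7 points, but BCB-positive oocyte 1 and BCB-negative oocyte 3 overlapped. XM_005666186.1 (2369 bases) was the largest share in BCB-positive oocyte 2, BCB-negative oocyte 2 and BCB-negative oocyte 3, and was 0 in BCB-positive oocyte 3, where XM_005666183.1 (2891 bases) held 62.3%. By the rule of an ordered share at least 20 points apart, 0 of the 2 members with several transcripts were called, where 3.53% of 1956 such genes were. Leaving out BCB-positive oocyte 2 brought XM_005666183.1 to a called difference of 30.7 points. Leaving out BCB-negative oocyte 3 brought XM_001929069.3 to a called difference of -23.9 points. The rule is looser with an oocyte left out, and the share of all such genes called in those runs is not given here. These 2 calls therefore cannot be read against a background. Transcript values are estimates that split shared reads, so single shares are less certain than gene totals.

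**Figure D3:**
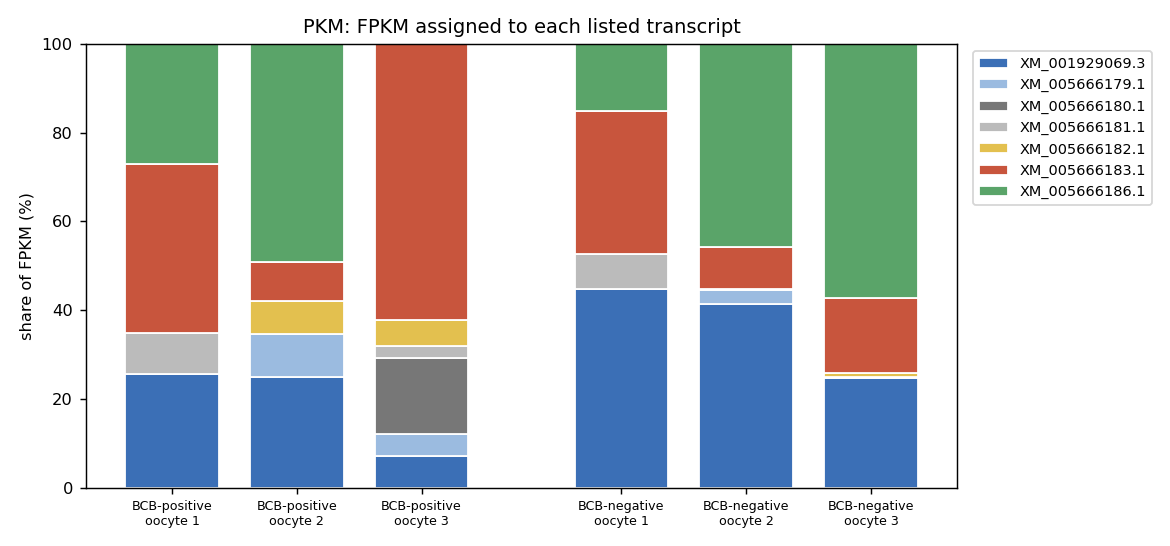
Share of PKM FPKM (%, stacked to 100) assigned to each of the 7 listed transcripts in each oocyte, BCB-positive left and BCB-negative right. The make-up differs from oocyte to oocyte within both classes; BCB-positive oocyte 3 has 62.3% in XM_005666183.1 and none in XM_005666186.1.

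Between genes, on the FPKM scale, the mean levels over 6 oocytes ran GAPDH 85.1, TPI1 47.0, GPI 31.3, PKM 21.5, PGK1 20.3, PFKP 13.2, PFKL 2.37, PFKM 1.90 and ENO1 0.352 FPKM. GAPDH stood clear of TPI1 and PFKP stood clear of PFKL, with ranges that did not overlap. Every other pair of neighbours overlapped over the oocytes, though TPI1 exceeded GPI in 6 of 6 oocytes and GPI exceeded PKM in 5 of 6. PKM and PGK1 could not be ordered, with PKM above PGK1 in 3 of 6 oocytes. Within an oocyte's own ranking of compared genes, GAPDH lay at percentile 84.2 to 92.3, TPI1 at 77.9 to 83.1 and GPI at 70.2 to 81.0, while PFKL lay at 8.68 to 32.9. No oocyte was high or low throughout: the highest value among the 8 compared enzymes fell in BCB-negative oocyte 3 for 3 of them, in BCB-positive oocyte 3 and BCB-negative oocyte 2 for 2 each and in BCB-negative oocyte 1 for 1.

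**Figure D4:**
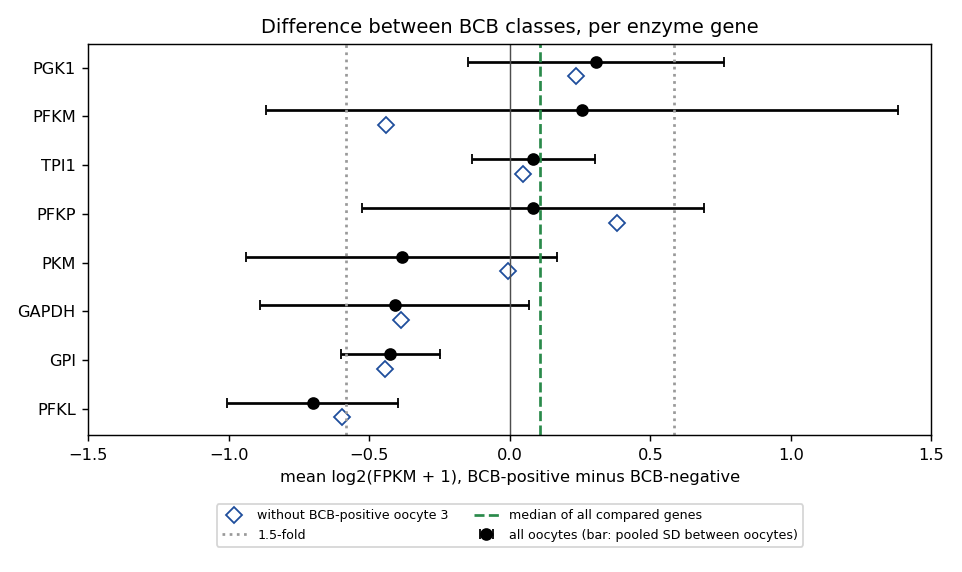
Difference in mean log2(FPKM + 1), BCB-positive minus BCB-negative, for the 8 compared enzymes (filled circles, bar: pooled SD between oocytes of a class), and the same without BCB-positive oocyte 3 (open diamonds). PFKL at -0.70 is the one point beyond the 1.5-fold line and ordered, GPI is at -0.43, and PFKM changes sign without that oocyte.

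The remaining steps of the pathway placed these levels in context. Glucose is phosphorylated by hexokinases or by ADPGK, which uses ADP in place of ATP. ADPGK measured 259, 224 and 152 FPKM in BCB-positive oocytes 1, 2 and 3, against 221, 251 and 241 FPKM in BCB-negative oocytes 1, 2 and 3, with overlapping classes and a log2 difference of -0.20 (SD 0.29), which was 0.02 without BCB-positive oocyte 3. HK1, HK2, HK3 and HKDC1, named after their values were seen, together reached at most 1.98 FPKM in any oocyte, and ADPGK made up 98.7% to 99.6% of glucose kinase FPKM. Aldolase splits fructose 1,6-bisphosphate. ALDOC, the brain form, measured 63.0, 82.8 and 65.6 FPKM in BCB-positive oocytes, against 96.0, 53.7 and 41.3 FPKM in BCB-negative oocytes, with overlapping classes. PGAM1, which moves the phosphate of phosphoglycerate and was also named after its values were seen, was listed at 0 in 4 of 6 oocytes. BCB-positive oocyte 3 had 0.06 FPKM of it and BCB-negative oocyte 2 had 2.08 FPKM. The enolases ENO1 and ENO3 summed to at most 1.20 FPKM. For each of these steps, reads assigned to gene IDs with no matched symbol, 5361 of 19300, were not counted.

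**Figure D5:**
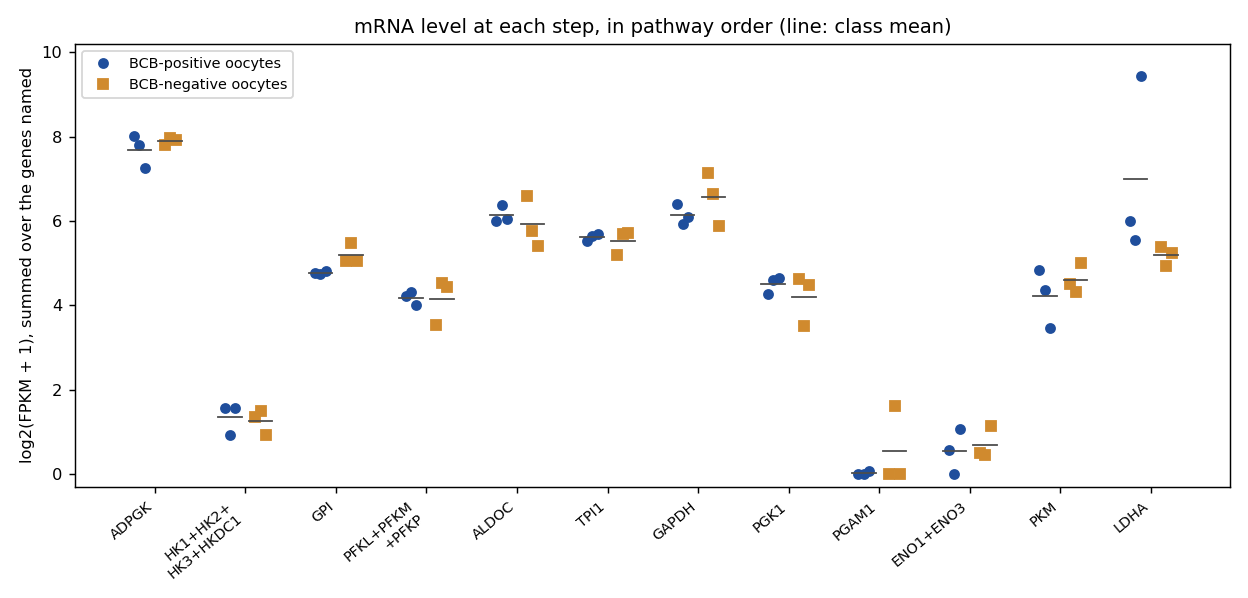
Level of each step in pathway order, as log2(FPKM + 1) of the gene or summed genes named on the axis, in each BCB-positive oocyte (circles) and BCB-negative oocyte (squares), with class means as lines. ADPGK, ALDOC and GAPDH are the high steps, the hexokinases, PGAM1 and enolases lie under 2, and LDHA is far higher in BCB-positive oocyte 3 than in any other oocyte. LDHB and LDHC are not shown.

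Lists of genes around the pathway gave 3 calls as higher in BCB-positive oocytes, LDHA, DLAT and RPIA, and 0 as lower, among 35 compared gene IDs, LDHB having 2, where the shares over all compared genes were 5.75% higher and 2.66% lower. By list, 0 of 2 genes of hexose entry, 0 of 2 other isozymes, 0 of 2 regulators and 0 of 4 genes of gluconeogenesis were called in either direction. For pyruvate and lactate it was 1 of 9 higher, for pyruvate dehydrogenase 1 of 9 and for the pentose phosphate pathway 1 of 7. DLAT, the acetyl-transferring subunit of pyruvate dehydrogenase, measured 10.24, 15.5 and 27.4 FPKM in BCB-positive oocytes 1, 2 and 3, against 7.11, 9.12 and 1.81 FPKM in BCB-negative oocytes 1, 2 and 3. The order was narrow between BCB-positive oocyte 1 and BCB-negative oocyte 2. DLAT differed by 1.5 on the log2 scale (SD 0.84), by 1.15 without BCB-positive oocyte 3 and by 0.94 without BCB-negative oocyte 3, whose value rested on 32 counts. PDHA1, another subunit of pyruvate dehydrogenase, was ordered as lower at -0.46 (SD 0.24), short of the 1.5-fold rule. So was the glucose transporter SLC2A8, at -0.24 (SD 0.13). With FPKM rescaled to a common sum in each oocyte, the classes overlapped for PDHA1 and for SLC2A8.

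LDHA, which turns pyruvate into lactate just after PKM, stood at 692 FPKM in BCB-positive oocyte 3, well above BCB-positive oocytes 1 and 2, with 62.8 and 45.7 FPKM, and above the 3 BCB-negative oocytes, none over 40.65 FPKM. Other lactate dehydrogenase genes were present. LDHC, named after its values were seen, measured 169, 180 and 285 FPKM in BCB-positive and 232, 172 and 144 FPKM in BCB-negative oocytes 1, 2 and 3. The 2 gene IDs of LDHB averaged 83.3 and 69.2 FPKM over the 6 oocytes. The log2 difference of LDHA was 1.81 (SD 1.51), and 0.58 without BCB-positive oocyte 3, just under the 1.5-fold rule. The glycolytic enzymes were not all high there: in BCB-positive oocyte 3 PKM and PFKL were at their lowest of the 6 oocytes, and PFKM and PGK1 at their highest. RPIA, ribose-5-phosphate isomerase, differed by 0.94 (SD 0.42), and by 0.82 without that oocyte, but was not called under size factor scaling. There the difference was 0.84, and BCB-positive oocyte 1 at 36.5 lay just under BCB-negative oocyte 3 at 37.2. The 2 compared regulators were hypoxia-inducible factors, and both had overlapping classes. EPAS1, the more abundant, differed by -0.18 (SD 0.39), and by 0.10 without BCB-negative oocyte 1. HIF1A differed by 0.73 (SD 0.53), and it was called higher, at 1.09, without BCB-negative oocyte 2. Among genes of gluconeogenesis, PGM1, which links glycogen to glucose 6-phosphate, differed by 0.61 (SD 0.62), also with overlapping classes.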

How the data were processed

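Single-oocyte poly(A)-primed cDNA was PCR-amplified and sequenced, per the labels' protocols. Build Sscrofa10.2 and the tools BWA, RSEM and Cufflinks are listed in the submitters' processing notes, without roles or versions. Deposited values are expected counts (estimated counts, not normalised) and FPKM, which the authors had scaled to length and depth, per gene and per transcript. A gene absent from a file was set to 0. Priming from the poly(A) tail can favour 3′ ends, which bears on levels compared between genes; its part was not tested.

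NCBI gene IDs were named from a table of assembly Sscrofa11.1: 13936 of 19300 matched by ID and 3 by accession. The 5361 unmatched held 8.63% to 10.2% of counts. Genes averaging at least 1 FPKM were compared on log2(FPKM + 1) in Python 3.11.15 with pandas 2.3.3. No p-value was computed, since each class is 1 sample of 3 cells. Members and gene lists were chosen with earlier results of these data known. Named were all members, called genes of the other lists or else the most abundant, and marker genes. Alternatives covered pseudocount, scaling, filters and each oocyte left out. Sequences were not used here. Some genes of the lists are counted but not reported singly here.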

Additional observations from a re-analysis of the deposited data

How the results depend on the processing

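No paired analysis was possible because no result comes from a test and the labels tie no BCB-positive oocyte to a BCB-negative one. The count of enzymes called lower was 1, became 0 with a minimum mean of 5 FPKM, which removes PFKL and PFKM, and ran from 1 to 2 with an oocyte left out, the second being GAPDH without BCB-negative oocyte 3, where 4.97% of compared genes were called lower, against 2.66% with all oocytes. With 1 oocyte left out the rule is looser: 7.19% to 13.7% of compared genes were called higher and 4.402% to 6.92% lower. The count of enzymes called higher was 0 under all 12 alternatives. With an oocyte left out, 0 to 1 members had a called transcript share, and the share of all such genes called in those runs is not given here. In the same runs 4 to 6 of the surrounding genes were called higher and 0 to 1 lower. The 6 were called without BCB-positive oocyte 1, where the share over all compared genes was 13.7%. Among those lower were MPC1 without BCB-positive oocyte 2 and PDHA1 without BCB-negative oocyte 3. LDHA lost its call without BCB-positive oocyte 3, and RPIA under size factors. The members' median difference stayed below 0, from -0.25 to -0.06, and below that of all compared genes by a difference of -0.39 to -0.18. PFKL, GPI, GAPDH and PKM kept their sign under every alternative run for them, and PFKM, PFKP, TPI1 and PGK1 did not. PFKL and GPI were ordered with all oocytes, so leaving an oocyte out could not change their sign. The split was narrow for PKM, at -0.007 without BCB-positive oocyte 3, and for PGK1, at -0.043 without BCB-negative oocyte 2. The PFKP share difference ran from -2.09 to 15.4 points with an oocyte left out. PFKL, PFKM and ENO1 rest on few counts, which limits their precision.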
